A study of Homo sapiens with 4 samples.

Results

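The effect of a CstF-64 siRNA on poly(A) site use in HEK293 cells, an established human embryonic kidney cell line, was examined by comparing 1 A-seq library of cells given that siRNA with 1 library of cells given a control siRNA. These are 2 of the 4 libraries of the study. A library from HEK293 cells given no siRNA served as background, and a library from cells given a CF Im 68 siRNA, is quoted beside single loci only. Transfection used Lipofectamine RNAiMAX, and the cells were harvested after 3 days, per the labels' protocols. The control siRNA is labelled scrambled-A. Each group was 1 library, so no difference here has a replicate check, and what the siRNA did cannot be told apart from what differs between any 2 cultures or library preparations. The extent of depletion was checked by the submitters on Western blots that were not used here, and the mRNA of the targeted gene was not analysed here.

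CstF-64 is the protein through which the cleavage stimulation factor touches RNA. It recognises U-rich and GU-rich sequence just downstream of the cleavage site, and the factor cooperates with the factor that binds the AAUAAA signal upstream of it. Mammalian cells also have a paralogue, CstF-64 tau, that can take its place. Many transcripts have several poly(A) sites, and cleavage at a site closer to the promoter (proximal) gives a shorter 3′ untranslated region, or a shorter coding region when it lies upstream of the last exon, than cleavage at a distal site. CF Im 68, the target of the other siRNA, belongs to cleavage factor I, a complex that contacts RNA upstream of cleavage sites. The siRNA used against CstF-64 is shown because every value here rests on it. It was 21 letters long, of which 19 were given bases, 11 of these G or C, and the other 2 were written as N:
CstF-64 siRNA: NNCCUGAAUGGGCGCGAAUUC

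In A-seq, poly(A) RNA is reverse transcribed from an oligo-dT primer anchored at the end of the transcript body, so that the 3′ end of a read marks a cleavage position. The deposited values were counts of reads per single-nucleotide position and strand, with coordinates on hg19 (GRCh37), given here 1-based. The 4 libraries held 7343112 to 15806975 reads, the fewest after the CstF-64 siRNA. The other libraries were thinned at random to those 7343112 reads, which kept 46.5% to 57.4% of their reads, and the values that follow are at this equal depth unless stated. Positions within 25 nt of a local maximum were joined into a site, and the sites of the compared libraries held 92.3% of the control siRNA reads and 93.0% of the CstF-64 siRNA reads. Before thinning, reads on the mitochondrial chromosome, which entered no comparison, made up 1.53% (exact 95% interval 1.52 to 1.54) of the control siRNA library and 1.79% (1.78 to 1.80) of the CstF-64 siRNA library. Loci are named by coordinates, because no annotation of this build was used. The coordinates do not say which gene a site belongs to, and marker genes of HEK293 cells were not analysed here.

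Poly(A) site use moved toward the proximal site more often than toward the distal site after the CstF-64 siRNA. Sites within 10 kb of a most used site on the same strand were taken as 1 locus. Without annotation, a locus can hold sites of different transcripts. The 2 most used sites of a locus formed its pair. The proximal share is the percent of the pair's reads at the site nearer the transcript's 5′ end. Of 18215 loci, 12015 had 1 kept site, 6200 had a pair, and 4548 had at least 50 pair reads in both libraries. At 446 of these 4548 loci, 9.81%, the proximal share was higher after the CstF-64 siRNA by at least 10 percentage points with an adjusted p below 0.05, and at 244 loci, 5.36%, it was lower by as much (two-sided Fisher's exact test on reads, Benjamini-Hochberg adjustment over all loci tested). Proximal moves were thus 64.6% of the 690 moves. The test compares the reads of 2 libraries, not conditions, and its p-values cover counting error only.

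The same procedure applied to no siRNA against control siRNA gave moves somewhat more often, but about equally in both directions. Moves were 18.2% of the loci tested there and 15.2% after the CstF-64 siRNA. Of 4684 loci tested there, 424 (9.05%) moved proximally and 427 (9.12%) distally, so 49.8% of 851 moves were proximal. The number of proximal moves after the CstF-64 siRNA was therefore close to the background, and the difference from it lay in the fewer distal moves. These comparisons share the control siRNA library. Set against the no siRNA library instead, the CstF-64 siRNA library had 846 proximal moves (19.6% of 4323 loci) and 570 distal moves (13.2%), and 59.7% of the moves were proximal. The difference between these percentages was not tested, since each group is 1 library.

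The shift over all loci was small. The median proximal share was 46.7% after the CstF-64 siRNA and 44.8% after control siRNA, and the median change per locus was 1.20 points (95% interval over loci 0.953 to 1.5). The share was higher at 56.8% of loci and lower at 43.2%. In the background comparison the median change was -0.153 points (-0.443 to 0.141). Single loci moved far more than this median: the median size of the change, without its sign, was 5.03 points after the CstF-64 siRNA and 5.69 points in the background. Past 30 points there were 34 proximal and 18 distal moves after the CstF-64 siRNA, against 15 and 28 in the background. Past 40 points there were 8 in each direction, against 1 proximal and 2 distal in the background. Some of these largest moves came from sites with all reads at 1 position or with none in a library. Among pairs whose sites had reads in all 4 libraries and at several positions, a restriction chosen after seeing the data, 31 proximal and 13 distal moves passed 30 points, and 5 and 4 passed 40. The background then had 14 and 25 past 30 points, and past 40 it had 0 and 1.

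**Figure D1:**
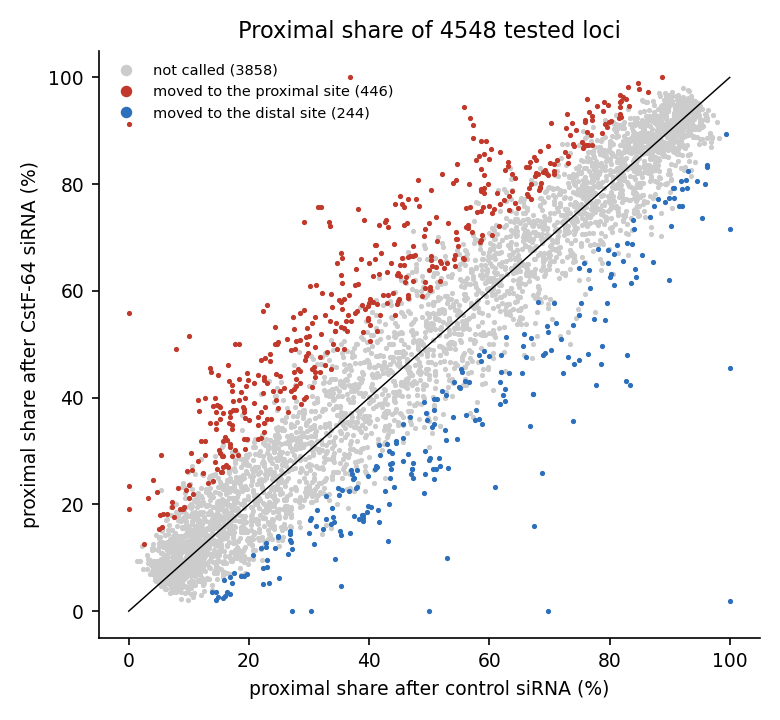
The proximal share of each locus after the CstF-64 siRNA is plotted against its share after control siRNA, in percent of pair reads, with moved loci coloured. The 446 proximal moves lie above the diagonal and the 244 distal moves below it.

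The proximal excess was found at pairs whose sites lay far apart. Among 2969 pairs over 500 nt apart, 355 moved proximally and 158 distally (12% and 5.32%), whereas among 1579 pairs up to 500 nt apart the counts were 91 and 86. In the background, pairs over 500 nt apart moved proximally at 275 and distally at 325 of 3062 loci, and closer pairs at 149 and 102 of 1622. By class of distance, the median change after the CstF-64 siRNA was -0.169 points (-0.709 to 0.522) at up to 100 nt, 1.51 points (0.761 to 2.03) at over 500 to 1000 nt and 2.48 points (1.78 to 2.98) at over 1000 to 2000 nt. Pairs over 1000 to 2000 nt apart had the highest median of the 7 classes, with 102 proximal and 37 distal moves among 834 loci, where the background had 67 and 105 among 853. Beyond that the median was lower, at 1.09 points (0.207 to 2.0) for pairs over 5000 to 10000 nt apart, of which 14.1% moved proximally and 8.0% distally. Sites were paired by strand and distance only, so the sites of a pair can belong to different transcripts, also in the shorter classes. A change of share can then be a change of RNA level. This limit bears on the proximal excess at pairs over 500 nt apart, and its part there was not tested.

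**Figure D2:**
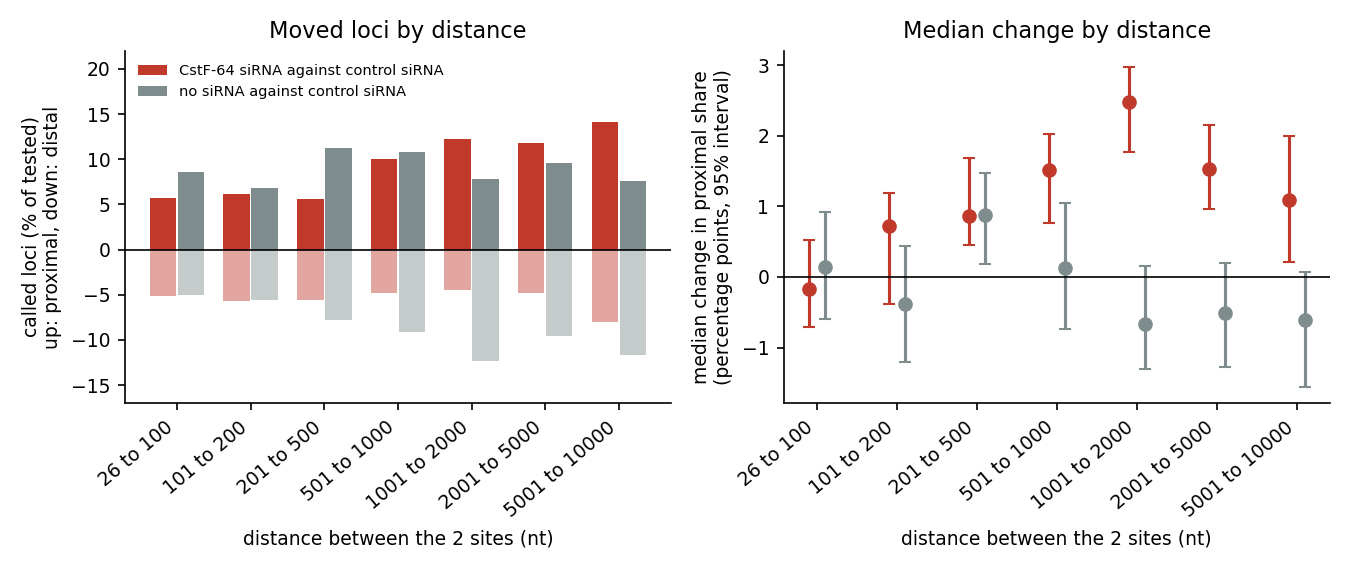
Percent of tested loci that moved to the proximal site (upward) or the distal site (downward), by the distance between the 2 sites in nt, for the CstF-64 siRNA and for no siRNA, each against control siRNA. After the CstF-64 siRNA the proximal percent is 5.68 at up to 100 nt and 14.1 at over 5000 to 10000 nt, while the distal percent lies between 4.44 and 5.67 up to 5000 nt.

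Loci whose proximal site held over 75% of pair reads had a median change near 0, and the other loci had a higher one. Loci were classed by their share in the no siRNA library, which is not part of the comparison. Where that share was 0% to 25%, 136 of 1414 loci moved proximally and 38 distally, with a median change of 1.75 points. At 25% to 50% the counts were 145 and 64 of 888, with a median of 2.07 points, and at 50% to 75% they were 107 and 77 of 908, with 1.82 points. Above 75%, 45 loci moved proximally and 59 distally of 1091, and the median change was 0.0395 points (-0.444 to 0.474). A share near its upper limit has little room to rise, and the part of this in these medians was not tested. In the background comparison, classed by the CstF-64 siRNA library, the class above 75% also had the lowest median, -0.902 points. The background medians of the lower classes were 0.307, 0.357 and 0.159 points, in order of rising share. The background's distal moves were 42 of 1284 loci in the lowest class and 137 of 1189 in the highest.

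The direction was the same in well read and thinly read loci. Among the 893 pairs with over 1000 reads in the 2 libraries together, 110 moved proximally and 55 distally (12.3% and 6.16%), with a median change of 1.31 points (0.874 to 1.82). The 916 such pairs of the background moved at 80 and 85 loci, with a median of -0.342 points (-0.792 to 0.151). Pairs with 100 to 200 reads moved proximally at 63 and distally at 32 of 936 loci, with a median of 1.81 points. The excess was also found at every number of kept sites per locus. With 2 sites, 220 loci moved proximally and 109 distally of 2510, and with 3 sites 131 and 83 of 1253. With 5 or more sites the counts were 35 and 14 of 267, with a median change of 2.11 points against 1.04 points at loci with 2.

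At loci with exactly 3 kept sites, the most 3′ site lost use and the others gained. In 972 such loci, the most 3′ site held 32.9% of reads on average after the CstF-64 siRNA and 34.6% after control siRNA, a median change of -1.39 points (-1.79 to -0.763). It lost at least 10 points at 132 loci and gained as much at 59. The most 5′ site went from 32.6% to 33.6%, a median change of 0.788 points (0.273 to 1.25), gaining at least 10 points at 106 loci and losing it at 74. The middle site had a median change of 0.529 points (0.0526 to 1.05), with 80 gains and 57 losses. In 983 background loci, the most 3′ site had a median change of 0.00801 points, with 119 gains and 115 losses.

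Moved loci lost reads at one site and gained them at the other, with the loss the larger at equal depth. At the 446 loci moved proximally, the median log2 ratio of reads, CstF-64 siRNA over control siRNA with 1 read added to both, was -0.83 at the distal site and 0.45 at the proximal site. Distal reads were lower at 95.1% of these loci and proximal reads higher at 82.7%. At the 244 loci moved distally, the median was -0.85 at the proximal and 0.44 at the distal site. The pair as a whole had a median of -0.19 at the former and -0.17 at the latter, against -0.12 at the 3858 loci not called. With the trimmed mean scaling of edgeR used below, whose factor for the CstF-64 siRNA library was 0.867, all these ratios would be higher. Whether the loss exceeds the gain thus depends on the scaling. The moves of the background had the same form, with 0.47 and -0.77 at the proximal and distal sites of its proximal moves. These signs follow from how moves are called and are a description only.

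Loci are named by a rule stated with the processing. It requires the no siRNA share to lie at least 10 points from the CstF-64 siRNA share on the same side, a condition that 337 of the 446 proximal and 163 of the 244 distal moves met. The direction against no siRNA is thus fixed by the choice of loci.

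Among the most read proximal moves, a minus-strand pair of chromosome 1, 176 nt apart at 45976900 and 45976724, had proximal shares of 41.6% without siRNA, 46.9% after control siRNA, 66.6% (exact 95% interval 65.5 to 67.7) after the CstF-64 siRNA and 46.9% after the CF Im 68 siRNA. It had 7452 pair reads after the CstF-64 siRNA, and its change of 19.8 points against control siRNA had an adjusted p of 3.1e-128 by Fisher's exact test. The CstF-64 siRNA library lay farthest from the others there. A plus-strand pair of chromosome 19, at 38874115 and 38874464, also had its highest share after the CstF-64 siRNA, with 49.6%, 49.9%, 63.9% (62.7 to 65.1) and 51.0%. So did a minus-strand pair of chromosome 17, 3173 nt apart at 7146913 and 7143740, with 39.7%, 43.0%, 63.6% (62.0 to 65.2) and 41.3%. Its proximal site had 2028 reads after control siRNA and 2182 after the CstF-64 siRNA, and its distal site 2686 and 1248. Without annotation its sites cannot be assigned to 1 transcript, so this can be a change of RNA level. At these 3 loci the CF Im 68 siRNA library lay close to the control libraries.

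At other well read loci the CF Im 68 siRNA library also lay above both control libraries. At a minus-strand pair of chromosome 8, sites 1409 nt apart at 24809889 and 24808480 had proximal shares of 75.8% without siRNA, 73.0% after control siRNA, 93.1% (92.3 to 93.8) after the CstF-64 siRNA and 87.5% after the CF Im 68 siRNA. Plus-strand sites of chromosome 2, 857 nt apart at 217070147 and 217071004 had 14.7%, 28.6%, 50.8% (49.3 to 52.4) and 43.7%. The change after the CstF-64 siRNA was 22.3 points there, and the control libraries also lay apart from each other. Minus-strand sites of chromosome 1 at 6246279 and 6245092 had 39.5%, 40.1%, 53.6% (52.0 to 55.2) and 56.4%, so the CF Im 68 siRNA library was the higher there. The plus-strand pair of chromosome 14 at 90871952 and 90874611 had 69.5%, 67.8%, 82.0% and 76.4%, and the plus-strand pair of chromosome 10 at 62553992 and 62554609 had 20.0%, 29.3%, 47.1% and 39.6%. Sites 6084 nt apart on chromosome 19 (minus strand), at 35994207 and 35988123, had 46.8%, 63.8%, 78.8% and 71.9%, and sites 8323 nt apart on chromosome 1 (plus strand), at 38266804 and 38275127, had 16.2%, 15.6%, 29% and 25.6%. Changes against control siRNA at the 10 most read loci ran from 13.4 to 22.3 points. The largest named proximal changes included a plus-strand pair on chromosome 7, 260 nt apart at 38270010 and 38270270, with 51.0%, 29.1%, 72.9% (66.3 to 78.7) and 50.4%. Its change was 43.8 points on 210 pair reads after the CstF-64 siRNA (adjusted p 1.6e-21, Fisher's exact test), and its control libraries were far apart too. A plus-strand pair of chromosome 12 at 124242818 and 124245245 had 22.8%, 33.3%, 72.9% (59.7 to 83.6) and 48.1%, on 59 pair reads after the CstF-64 siRNA.

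**Figure D3:**
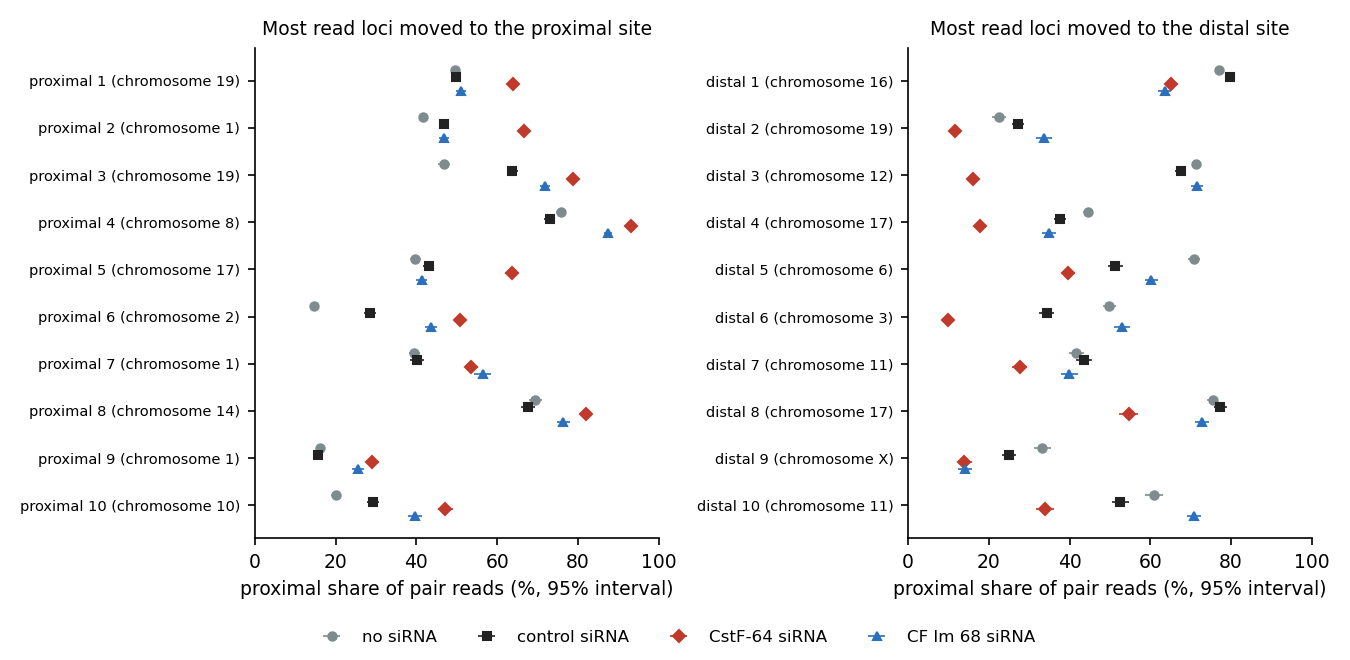
Proximal share, in percent of pair reads with exact 95% intervals, in each of the 4 libraries at the 10 most read loci moved to the proximal site and the 10 most read loci moved to the distal site. The CstF-64 siRNA point lies outside both control points at each locus, which the choice of loci fixes, and the CF Im 68 siRNA point lies at varying places between and beyond them.

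Among the distal moves that met this condition, the largest was at a plus-strand pair of chromosome 12, 369 nt apart at 54678664 and 54679033. Without siRNA 71.2% of its reads were proximal, with control siRNA 67.5%, and 16.0% (14.5 to 17.6) after the CstF-64 siRNA and 71.6% after the CF Im 68 siRNA. The proximal site had 5906, 3270, 357 and 2871 reads in these libraries. The pair as a whole had 8294, 4845, 2228 and 4010, so that its total was lowest in the library where the proximal site lost use. A short plus-strand pair of chromosome 3, 243 nt apart at 23961043 and 23961286, had 49.9%, 34.3%, 9.77% (8.69 to 10.9) and 53.0%, a fall of 24.5 points against control siRNA (adjusted p 1.9e-107, Fisher's exact test). The CF Im 68 siRNA library lay at or above both control libraries at these loci.

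The other named distal moves were at pairs whose distance varied widely. Those described below on chromosomes 11, 16, 17 and X were 5111 to 9993 nt apart, and the pair at 28285663 was 8942 nt apart. Sites so far apart can belong to different transcripts, so that a change of share there can be a change of RNA level. Minus-strand sites of chromosome 19, 1601 nt apart at 2428165 and 2426564 had proximal shares of 22.5% without siRNA, 27.2% after control siRNA, 11.6% (10.6 to 12.6) after the CstF-64 siRNA and 33.7% after the CF Im 68 siRNA. Plus-strand sites of chromosome 17 at 40718295 and 40723849 had 75.4%, 77.4%, 54.7% (52.3 to 57.1) and 72.8%. Minus-strand sites of chromosome 11 at 62392304 and 62382769 had 61.0%, 52.6%, 33.9% (31.6 to 36.3) and 70.9%. The CF Im 68 siRNA library was above both controls at the first and the last of these 3 and below them at the second. At the plus-strand pair of chromosome 16 at 767479 and 772590, the CF Im 68 siRNA library was about as far below both controls as the CstF-64 siRNA library, with 77.0%, 79.8%, 65.2% (63.6 to 66.9) and 63.6%. The minus-strand pair of chromosome X at 107972538 and 107963177 was alike, with 33.3%, 24.9%, 13.9% and 14.0%. At 7482325 and 7491505 on chromosome 17 (plus strand) the shares were 44.6%, 37.5%, 17.9% and 34.9%, and at 118269925 and 118279918 on chromosome 11 (plus strand) they were 41.6%, 43.5%, 27.6% and 39.9%. At 36570068 and 36570560 on chromosome 6 (plus strand), with 70.8%, 51.3%, 39.7% and 60.3%, the control libraries lay farther apart than control and CstF-64 siRNA. A thinly read plus-strand pair of chromosome 1, at 28285663 and 28294605, had 60.8%, 52.9%, 9.93% (5.54 to 16.1) and 42.1%. The closest named pair, 28 nt apart on chromosome 1 (minus strand) at 151023477 and 151023449, had 92.0%, 82.7%, 43.1% and 76.6%.

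Within sites, reads were concentrated somewhat more on 1 cleavage position after the CstF-64 siRNA. Cleavage at a poly(A) site is often spread over neighbouring nucleotides. For 6528 sites with at least 100 reads in both libraries, the peak position was taken from the no siRNA library, and the share of a site's reads at that position was compared. Its median was 69.4% after the CstF-64 siRNA and 66.7% after control siRNA, with a median change per site of 1.08 points (0.953 to 1.18), and it was higher at 60.1% of sites. The share was at least 10 points higher at 545 sites (8.35%) and as much lower at 305 sites (4.67%). In the background, with the peak taken from the CstF-64 siRNA library, no siRNA against control siRNA gave a median of -0.394 points (-0.537 to -0.277), with 212 sites (3.14%) higher and 451 (6.67%) lower. The direction was thus opposite in the background comparison, which shares the control siRNA library.

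The spread of cleavage positions was narrower as well. The SD of read positions within a site had a median of 2.41 nt after the CstF-64 siRNA and 2.55 nt after control siRNA, a median change of -0.0904 nt (-0.101 to -0.0806), and 61.6% of sites were narrower. The background change was 0.0157 nt. The mean cleavage position hardly moved, with a median offset of 0.0283 nt in the downstream direction against 0.0255 nt in the background. It moved by over 1 nt downstream at 265 sites and upstream at 185, against 352 and 204 in the background. Sites whose peak held 40% to 60% or 60% to 80% of reads in the no siRNA library had median changes of 1.45 and 1.49 points. Those with 80% to 100% had 0.912 points, and those under 40% had 0.483 points (-0.0769 to 1.07). The background medians, in classes by peak share in the CstF-64 siRNA library, were all below 0, from -0.251 to -0.788 points.

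The named sites are those with the largest change among the 1773 sites with at least 500 reads that met the rule. The largest gain was on the plus strand of chromosome 16 at 89629849, where the peak position held 43.3% of the site's reads without siRNA, 41.3% after control siRNA, 70.0% (67.3 to 72.5) after the CstF-64 siRNA and 67.8% after the CF Im 68 siRNA. At 57031961 on chromosome 12 (minus strand), the shares were 60.4%, 69.0%, 90.2% (89.1 to 91.2) and 71.8%, so only the CstF-64 siRNA library was that concentrated. The CF Im 68 siRNA library lay above both controls at every named gain, narrowly at 57031961. At 47614158 on the plus strand of chromosome 2 the shares were 48.1%, 49.9%, 69.9% and 69.2%.

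At 4 of the 6 named sites that lost the most at the peak, the most used position after the CstF-64 siRNA was another one, 4 to 17 nt away. On the plus strand of chromosome 2 at 55462745, the peak held 76.7% without siRNA, 79.1% after control siRNA, 28.8% (26.3 to 31.4) after the CstF-64 siRNA and 50.7% after the CF Im 68 siRNA. The most used position after the CstF-64 siRNA was 55462749, 4 nt downstream, with 54.3% of the site's reads. On the plus strand of chromosome 22 at 39918686, the shares were 60.6%, 28.9%, 4.01% (2.90 to 5.38) and 42.2%. The position 5 nt downstream, 39918691, held 92.4% after the CstF-64 siRNA and already 65.0% after control siRNA. At 131181056 on chromosome 3 (minus strand), the shares were 56.1%, 53.3%, 30.3% and 54.9%, and the position 10 nt downstream held 51.4% after the CstF-64 siRNA. The direction was not the same everywhere. At 3022794 on chromosome 16 (minus strand), with 38%, 35.5%, 16.1% and 42.6%, the most used position after the CstF-64 siRNA lay 17 nt upstream, at 3022811, with 33.0%. At the other two the peak stayed the most used position: its share was 68.1%, 67.6%, 45.1% and 64.5% at 7475282 on chromosome 17 (plus strand), and 66.7%, 56.4%, 35% and 55.8% at 87328413 on chromosome 1 (minus strand).

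**Figure D4:**
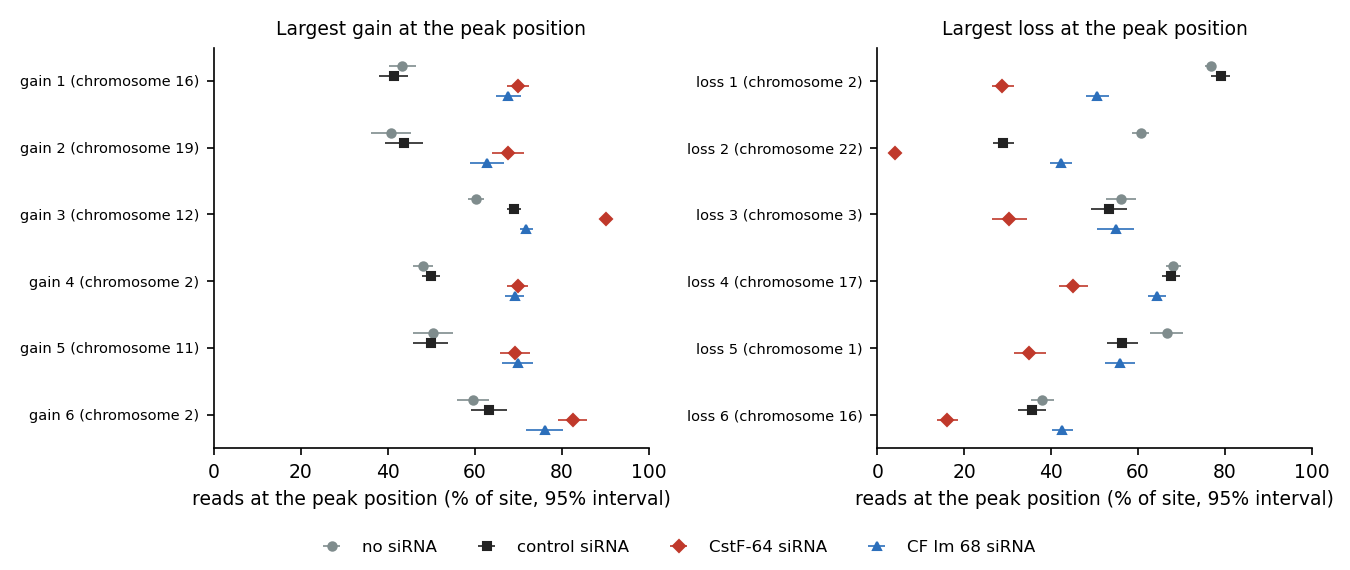
Share of a site's reads at its peak position, in percent with exact 95% intervals, in the 4 libraries, for the 6 sites with the largest gain and the 6 with the largest loss after the CstF-64 siRNA. At the largest loss, on chromosome 2, the share is 28.8% after the CstF-64 siRNA and 76.7% and 79.1% in the control libraries.

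Sites found in 1 of the 2 libraries were few and nearly all single-position. With at least 20 reads in one library and 0 in the other, 285 sites (0.871% of 32709) were found after the CstF-64 siRNA alone and 240 (0.734%) after control siRNA alone. Of these, 98.9% and 96.7% had all their reads at 1 position, against 5.89% of all sites, and 268 and 227 had no reads in the remaining libraries either. The most read site of the CstF-64 siRNA library alone, on the minus strand of chromosome 6 at 43718161, had 3548 reads there, 7 without siRNA and 0 after control siRNA. The most read site of the control siRNA library alone, on the plus strand of chromosome 19 at 32925565, had 6668 reads. Such sites held 0.466% of the CstF-64 siRNA reads and 0.455% of the control siRNA reads. In the background, 113 sites (0.342% of 33008) were found without siRNA alone and 241 (0.73%) after control siRNA alone. Copies of 1 fragment cannot be told apart from separate transcripts here, and the part of copying in these sites was not tested. Of the 4548 tested pairs, 13 held such a site, of which 6 moved proximally and 7 distally. A move at these pairs follows largely from how such sites were chosen.

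The summed reads of a locus, a measure of its poly(A) RNA, were more often lower than higher after the CstF-64 siRNA, by a margin that depended on the scaling. At equal depth, 395 of 12083 loci with at least 50 reads were at least 2-fold higher (3.27%) and 1548 at least 2-fold lower (12.8%), with a median log2 ratio of -0.18 (-0.20 to -0.17). With the trimmed mean scaling of edgeR (TMM), which moved the median to 0.02, 609 were higher (5.04%) and 1010 lower (8.36%). The share of changed loci that were lower was 79.7% at equal depth and 62.4% with TMM. The no siRNA library had 3.17% higher and 7.28% lower at equal depth, and 4.3% and 5.59% with TMM. These are ratios of 2 libraries without a test.

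The ratio moved with the read level of the locus. Loci with 50 to 100 reads over both libraries had a median of -0.33 at equal depth and 22.4% of them were at least 2-fold lower. Those with over 1000 to 5000 reads had -0.02 and 4.60%, and those with over 5000 reads had 0.13 and 3.03%. The background comparison had the same order, from -0.19 to 0.14, with 13.5% and 0.734% lower in the lowest and highest class. The part of read level or library make-up in the ratios was not tested.

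**Figure D5:**
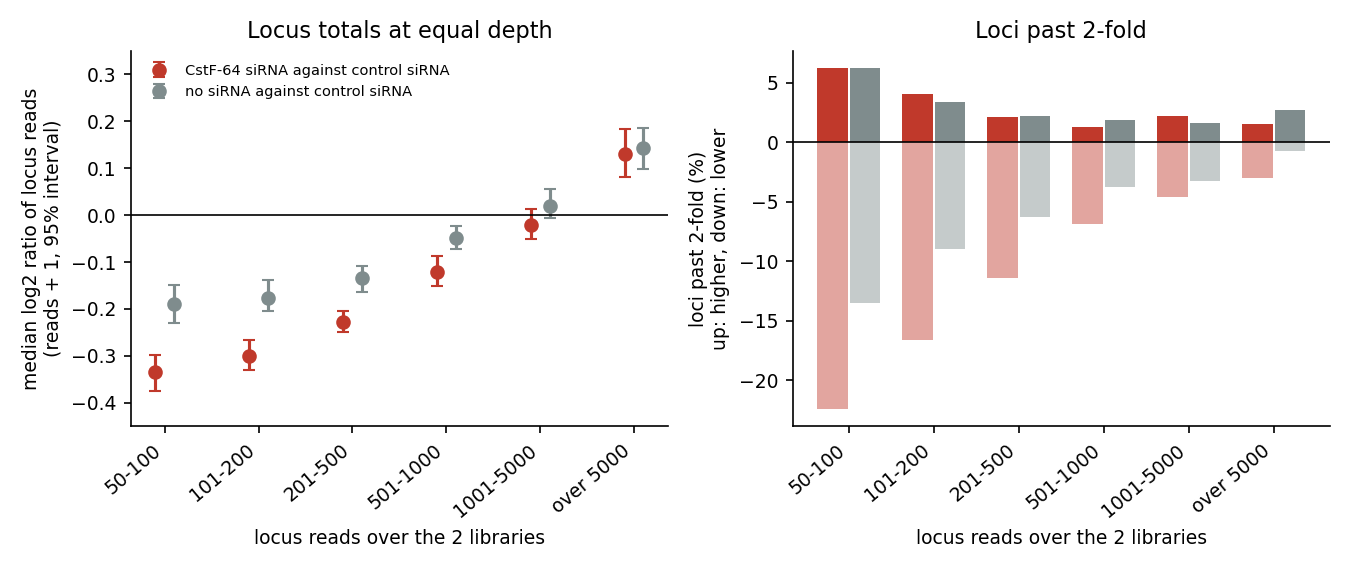
Median log2 ratio of locus reads at equal depth, with its interval over loci, by class of reads over both libraries. CstF-64 siRNA over control siRNA and no siRNA over control siRNA are drawn together, with bars of the percent of loci past 2-fold. The median falls below 0 in the thinly read loci, to -0.33 at 50 to 100 reads after the CstF-64 siRNA and -0.19 in the background.

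Named loci were past 2-fold under equal depth, TMM and DESeq2 scaling, with the no siRNA library on the same side of the CstF-64 siRNA library. The most read locus that was lower, on chromosome X (minus strand) with its main site at 118920469, had 2548 RPM (reads per 1000000 reads of the library) without siRNA, 3205 after control siRNA, 1332 after the CstF-64 siRNA and 1837 after the CF Im 68 siRNA. This was 2.41-fold lower than control siRNA (exact interval 2.35 to 2.46, counting error only). A plus-strand locus of chromosome 19 at 49470136 had 1091, 1130, 434 and 937 RPM, 2.60-fold lower, with the CF Im 68 siRNA library nearer the controls. At 134249419 on chromosome 8 (minus strand), the levels were 793, 629, 256 and 202 RPM, so both of these siRNA libraries were low. The plus-strand locus of chromosome 22 at 30165933 was alike, with 558, 470, 191 and 250 RPM. The plus-strand locus of chromosome 6 at 32949086 had 264, 345, 121 and 277, with the CstF-64 siRNA library alone low.

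At several higher loci the control siRNA library was the one apart. The most read higher locus, on the minus strand of chromosome 2 at 232319462, had 1312 RPM without siRNA, 527 after control siRNA, 1551 after the CstF-64 siRNA and 1661 after the CF Im 68 siRNA. It was 2.94-fold higher (2.84 to 3.05) than control siRNA, but only 0.24 higher on the log2 scale than no siRNA. The minus-strand locus of chromosome 11 at 62443973, with 600, 257, 769 and 452, and the plus-strand locus of chromosome 9 at 36212056, with 601, 273, 618 and 460, had the same form. A minus-strand locus of chromosome 22 at 29723847, with 361, 148, 518 and 453, had the highest ratio of the 8 named, 3.50 (3.27 to 3.75). A minus-strand locus of chromosome 10 at 102746027 was higher than every other library, with 129, 214, 488 and 278 RPM. So was the plus-strand locus of chromosome 19 at 39980562, with 403, 434, 886 and 655, whose ratio of 2.04 came to a log2 value of 0.99, just under 2-fold, when the reads were thinned with another seed.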

How the data were processed

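A-seq reads of 4 HEK293 libraries, 1 per group, were used as the authors deposited them: counts of reads per 3′ end position and strand, not normalized. The submitters' processing notes name hg19 and GRCh37 as the build. The aligner, the treatment of reads with several matches or of PCR copies, and any filters are not given in the sources used here. Internal priming at A-rich stretches was not separated. No molecular identifiers were named, so exact (Clopper-Pearson) 95% intervals cover counting error only.

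Libraries were thinned without replacement to 7343112 reads (seed 11). On chromosomes 1 to 22 and X, positions within 25 nt of the most read position formed a site, and sites needed at least 1 RPM (read per 1000000 reads) on average over the compared libraries and 5% of their locus. Sites within 10 kb of the main site formed a locus. Pairs with at least 50 reads in both libraries were tested by two-sided Fisher's exact test with Benjamini-Hochberg adjustment. A move needed an adjusted p below 0.05 and 10 points. The background repeated every step on no siRNA and control siRNA. Locus ratios used reads plus 1. Intervals of medians are order-statistic intervals over loci or sites, which are not replicates.

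Named in each direction were the 10 moves with the most pair reads and the 6 largest, the 8 most read changed loci, the 6 largest changes at the peak among sites of at least 500 reads and the 4 most read sites of 1 library, and the text describes part of them. Pairs, locus totals and peak sites also needed the no siRNA library on the same side (for pairs by at least 10 points), and pairs needed reads at both sites in all 4 libraries. The comparison, lists and tests were chosen with earlier results of these data known. Motifs, gene lists and marker genes were not analysed here, because no sequence or annotation of hg19 was used.

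Alternatives changed thinning, scaling, read minimum, size threshold, site definition and reference library. The pair test, the thinning and the joining of positions into sites were tested on simulated data. Tools were Python 3.11.15, numpy 2.4.6, pandas 2.3.3, scipy 1.17.1, numba 0.67.0, matplotlib 3.10.9, R 4.3.3, edgeR 4.0.16 (TMM factors only) and DESeq2 1.42.0 (size factors only).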

Additional observations from a re-analysis of the deposited data

Results flagged for a closer look

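Before thinning, reads on the mitochondrial chromosome, which entered no comparison, made up 1.79% of the CstF-64 siRNA library, above the 1.17% without siRNA and the 1.53% after control siRNA. The CF Im 68 siRNA library had 3.75%.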

How the results depend on the processing

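Proximal moves outnumbered distal moves under every alternative run. The counts, 446 proximal and 244 distal as reported, were 242 and 125 with at least 200 pair reads, 157 and 84 with a 20-point minimum, 683 and 394 with no minimum change, and 846 and 570 with no siRNA as the reference. The median change of 1.20 points was 1.61 points when sites needed 10% of their locus. The share at the peak position had a median change of 1.49 points with the peak taken from the compared libraries and 1.69 points with no siRNA as the reference, against 1.08 points as reported. Loci at least 2-fold higher and lower, 395 and 1548 as reported, were 609 and 1010 with TMM, 624 and 995 with DESeq2 factors, 1142 and 3186 with no read minimum, 133 and 561 with at least 200 reads, and 1133 and 3223 past 1.5-fold. The higher loci were 1194 with no siRNA as the reference and 263 when several positions were required, an alternative chosen after seeing the data. Sites of 1 library, 285 after the CstF-64 siRNA and 240 after control siRNA, were 122 and 102 with at least 50 reads, and sites without reads after the CstF-64 siRNA were 129 with no siRNA as the reference. Of 31 named pairs, 30 kept direction and call with another thinning seed and against no siRNA, and 1 was too thinly read to test in each. The direction against no siRNA, and a change of at least 10 points, were fixed by the choice of these pairs. Another seed draws from the same reads, so neither count is an independent check. Of 16 named locus totals, 7 were under 2-fold against no siRNA. No paired analysis was possible because each group is 1 library. Leaving out a library would leave no comparison.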
